A study of Mus musculus and Sus scrofa with 18 samples.

Results

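Disease-associated microglia (DAM) genes are the genes by which microglia near plaques or dying cells are told from resting microglia. The set examined here was fixed by name and held 10 genes, Apoe, Trem2, Tyrobp, Cst7, Lpl, Itgax, Clec7a, Axl, Spp1 and Cd9, of the 55357 genes in the mouse count table. Each symbol matched 1 Ensembl gene, and all 10 were among the 19463 genes left after the filter on low counts. Microglia are the resident phagocytes of the brain. The receptor TREM2 binds lipids and apolipoproteins and signals through its adaptor TYROBP. In mouse models of neurodegeneration the full DAM program, to which Cst7, Clec7a, Itgax and Axl belong, depends on TREM2, while genes of the resting state fall.

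Striatal RNA of 9 mice was sequenced, with 3 mice in each of 3 groups. The WT group carried no CasRx and was given only AAV9-Ctrl gRNA, a vector with a scrambled guide. Untreated HD 140Q-KI mice received AAV9-CasRx and AAV9-Ctrl gRNA. Treated HD 140Q-KI mice received AAV9-CasRx together with both vectors against HTT, AAV9-HTT gRNA1+2 as well as AAV9-HTT gRNA3+4. HD 140Q-KI mice are heterozygous, with 1 Htt allele in which the exon 1 is human and its CAG repeat expanded. CasRx is an RNA-cutting Cas13 enzyme. It was driven by the CAG promoter and the guides by the U6 promoter, neither of which is restricted to neurons, and the guide vectors carry GFP. Both striata were injected at 6 months of age and the tissue was taken 1.5 months later. Because no WT mouse received CasRx, the contrast of HD with WT mice covers the knock-in allele and CasRx at once.

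Each library is 1 mouse, and total counts lay between 27184356 and 32102121. Htt, the targeted gene, was counted at 182 to 191 CPM (counts scaled to library size with TMM) in WT, 140 to 150 CPM in untreated and 131 to 140 CPM in treated mice. Its log2 difference between treated and untreated mice was −0.097 ± 0.059 (SE, edgeR adjusted p = 0.942). Against WT it was −0.37 ± 0.059 (edgeR adjusted p = 0.00656) in untreated mice. Counts per gene do not separate the Htt alleles. Y-linked genes held 3435 to 5005 counts in the 3 WT mice and untreated replicate 1 and 0 in the other 5 mice, so that in treated against WT mice sex and group cannot be told apart. Untreated replicate 3 stood apart from untreated replicates 1 and 2. It had the highest value of all 9 mice in 9 of the 10 DAM genes, against 17.3% of all tested genes. Fold changes of DAM genes that rest on it are given with and without it. Those of all other genes are given only with it, so that a rise of these in untreated mice can rest on this mouse.

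A subset of the genes carried the difference from WT mice. Clec7a, Itgax and Cst7 were nearly absent in WT mice and were 20.2-fold to 66.9-fold higher in the HD groups, and Trem2 and Tyrobp were 2.09-fold to 2.40-fold higher. The untreated values rest in part on untreated replicate 3, without which the log2 fold changes of Clec7a, Itgax and Cst7 fell from 5.26, 4.59 and 6.06 to 3.65, 3.01 and 4.23. Apoe, Lpl, Axl, Spp1 and Cd9 were already well expressed in WT mice and were not called in any comparison. A gene is called here when edgeR's quasi-likelihood fit gives it a raw P under 0.05 and it differs by 2-fold or more. By this measure 5 of 10 DAM genes rose in untreated against WT mice and none fell, where 5.57% of all tested genes rose and 2.58% fell. The same 5 of 10 rose in treated against WT mice and none fell, where 3.84% rose and 1.38% fell. Of these 5 genes 3, Clec7a, Itgax and Cst7, passed the filter on low counts only through the HD mice, so that nothing is read from the count against these shares. With a raw P under 0.01 in place of 0.05, Tyrobp was not called in treated mice, which left 4 of 10. Both comparisons share the 3 WT mice. Between treated and untreated mice 0 of 10 were called, where 0.771% of all tested genes were called in either direction. The median log2 fold change of the 10 genes was 0.81 in untreated and 0.74 in treated mice against WT, beside 0.017 and 0.0038 over all tested genes, and −0.056 between treated and untreated mice, beside −0.014.

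**Figure D1:**
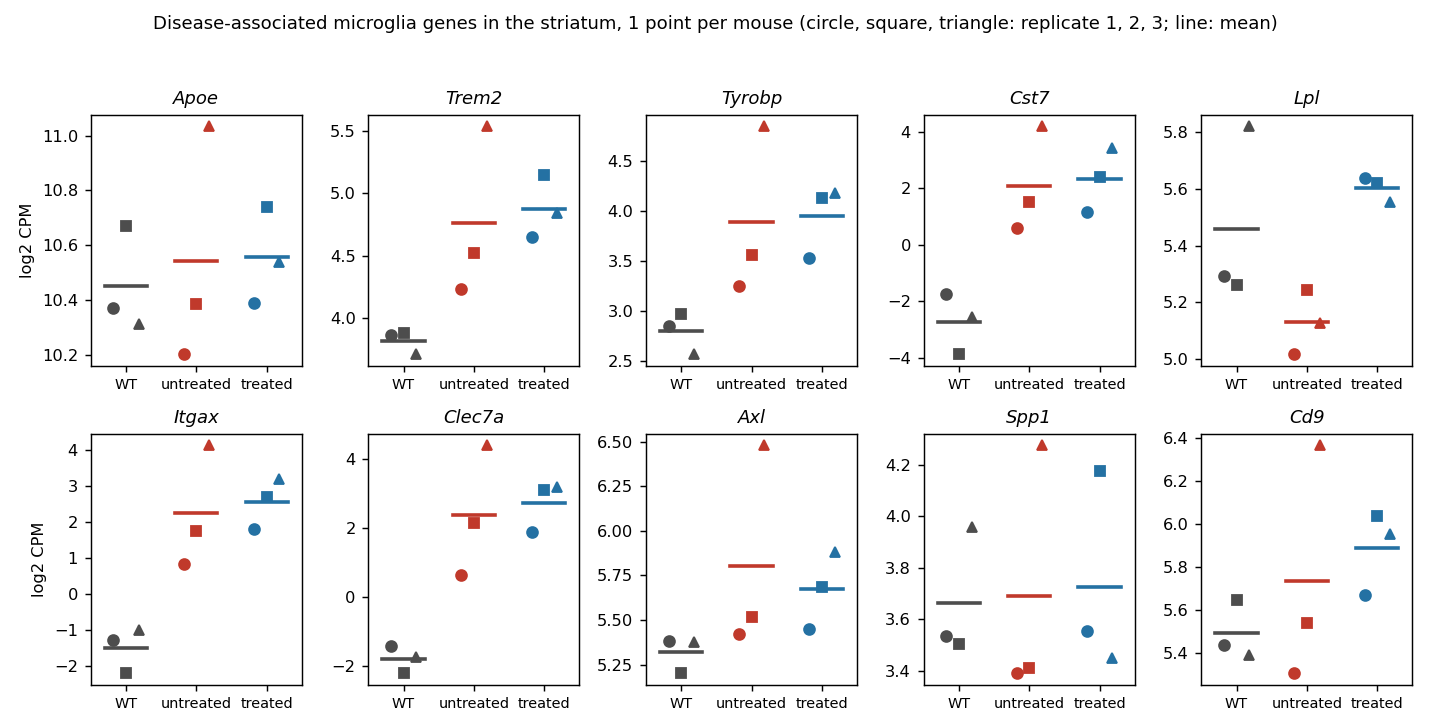
Level of each DAM gene in every mouse, as log2 CPM with a prior count of 2 on the vertical axis of each panel (the panels have different scales), with WT, untreated and treated mice side by side; circles, squares and triangles are replicates 1, 2 and 3, and lines are group means. Clec7a, Itgax, Cst7, Trem2, Tyrobp and Axl lay above every WT mouse in all 6 HD mice, and the triangle of untreated replicate 3 is the highest point in every panel except that of Lpl.

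The promoters of 4 of the called genes are shown because these genes rose together in the same mice. They were read from RefSeq windows of build GRCm38.p6, which held 8 of the 10 DAM genes and had no entry for Tyrobp or Lpl. Each run gives the 250 bases before the start of the gene and the first 10 bases after it, 5′ to 3′ on the strand of the gene, and capitals mark the AP-1 motif TGANTCA.
Clec7a, chr6:129472770-129473029, minus strand: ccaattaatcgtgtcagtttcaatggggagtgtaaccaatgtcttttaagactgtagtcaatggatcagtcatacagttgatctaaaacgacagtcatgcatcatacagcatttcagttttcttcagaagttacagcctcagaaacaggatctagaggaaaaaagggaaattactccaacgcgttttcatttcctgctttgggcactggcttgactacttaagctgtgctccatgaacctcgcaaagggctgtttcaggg
Itgax, chr7:128129300-128129559, plus strand: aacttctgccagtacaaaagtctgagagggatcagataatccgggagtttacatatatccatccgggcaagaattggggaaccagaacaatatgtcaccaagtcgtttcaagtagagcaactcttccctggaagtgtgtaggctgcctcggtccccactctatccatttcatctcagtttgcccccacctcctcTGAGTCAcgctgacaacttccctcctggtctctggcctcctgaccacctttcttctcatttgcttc
Cst7, chr2:150570165-150570424, plus strand: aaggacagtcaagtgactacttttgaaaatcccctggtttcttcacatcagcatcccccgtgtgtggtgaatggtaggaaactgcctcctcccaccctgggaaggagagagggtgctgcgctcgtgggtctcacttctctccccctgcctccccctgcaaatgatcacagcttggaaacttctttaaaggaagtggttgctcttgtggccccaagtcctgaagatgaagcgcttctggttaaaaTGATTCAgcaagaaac
Trem2, chr17:48346151-48346410, plus strand: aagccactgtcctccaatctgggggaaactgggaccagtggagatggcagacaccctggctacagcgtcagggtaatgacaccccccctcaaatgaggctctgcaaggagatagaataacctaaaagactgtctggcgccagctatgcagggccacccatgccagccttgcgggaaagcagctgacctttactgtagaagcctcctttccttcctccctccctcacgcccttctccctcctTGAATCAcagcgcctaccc
The search covered 5 motifs on both strands in windows with 250 bases before and 50 bases after each start. These were the PU.1 motif GAGGAAGT, the interferon-stimulated response element by its usual consensus, the GAS motif TTCNNNGAA, the AP-1 motif TGANTCA and the E-box CACGTG, of which the last 3 read the same on both strands. TGANTCA was in the windows of Trem2, Cst7 and Itgax, beginning 9, 6 and 56 bases before the start, and 7.81% of all 32851 windows held it. Neither of the 2 windows of Clec7a held any of the 5 motifs. Of the members that were not called, Spp1 had the PU.1 motif (3.2% of all windows) and the interferon element (3.44%) in 1 of its 2 windows, and Apoe, Axl and Cd9 had no match. TTCNNNGAA and CACGTG were in no window of a DAM gene and in 8.3% and 7.15% of all windows. These matches describe letters in a window and not binding.

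Trem2 (ENSMUSG00000023992) encodes the lipid-sensing receptor of the program. Its level was 14.5, 14.6 and 13.03 CPM in WT replicates 1 to 3, 18.7, 22.9 and 46.3 CPM in untreated replicates 1 to 3, and 25.0, 35.3 and 28.5 CPM in treated replicates 1 to 3. Every HD mouse was above every WT mouse, and the WT mice lay closer together than the mice of either HD group. The log2 fold change was 1.06 ± 0.30 (SE, adjusted p = 0.0509) in untreated mice and 1.07 ± 0.30 (adjusted p = 0.0798) in treated mice. In the 6 HD mice together the log2 difference from WT was 1.07 ± 0.27 (adjusted p = 0.0343). Here and below, ± is the SE, and adjusted p-values are those of edgeR after Benjamini-Hochberg adjustment across all tested genes.

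Tyrobp (ENSMUSG00000030579) encodes the adaptor through which TREM2 signals. It was counted at 7.14, 7.74 and 5.85 CPM in WT, at 9.44, 11.7 and 28.7 CPM in untreated and at 11.5, 17.5 and 17.99 CPM in treated replicates 1 to 3. Again no HD mouse overlapped the WT mice. Its log2 fold change was 1.27 ± 0.38 (edgeR adjusted p = 0.0639) in untreated and 1.18 ± 0.38 (adjusted p = 0.118) in treated mice, and 1.22 ± 0.35 (adjusted p = 0.0493) in the 6 HD mice together. Without untreated replicate 3 the log2 fold changes of Trem2 and Tyrobp in untreated mice were 0.57 and 0.62, below the 2-fold limit. Then 3 of 10 genes were called in untreated mice, where 6.19% of all tested genes were called in either direction. These were Cst7, Itgax and Clec7a, which passed the low-count filter only through the HD mice. Nothing is read from this count.

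Of 15 tested genes that act with TREM2 and TYROBP, 9 rose in untreated and 7 in treated mice against WT, and none fell. Their median log2 fold change was 1.23 in untreated and 0.92 in treated mice. Over all tested genes 5.57% rose and 2.58% fell in untreated mice, and 3.84% and 1.38% in treated mice. The lists here and below were chosen with earlier results of these data known. Some listed genes, near 0 in WT mice, passed the low-count filter only through the HD mice, so nothing is read from counts of called genes in such lists. Cd33, an inhibitory receptor of myeloid cells, had the smallest P, with log2 fold changes of 1.33 ± 0.28 (edgeR adjusted p = 0.0201) in untreated and 1.42 ± 0.28 (adjusted p = 0.0263) in treated mice. Treml2, a receptor of the same family as TREM2, was higher by 2.22 ± 0.69 on the log2 scale in untreated and by 2.25 ± 0.69 in treated mice. Ms4a6d, of a gene cluster tied to soluble TREM2, was higher by 2.05 ± 0.61 and 1.79 ± 0.61, and both were called in each HD group. The kinase Syk, which TYROBP recruits, had log2 fold changes of 0.94 ± 0.26 and 0.82 ± 0.26, short of the 2-fold limit, and the general adaptor Grb2 had −0.077 ± 0.072 and −0.14 ± 0.072.

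Clec7a (ENSMUSG00000079293) encodes Dectin-1, a receptor for β-glucans that marks DAM. It was counted at 0.302, 0.147 and 0.233 CPM in WT, at 1.47, 4.30 and 20.9 CPM in untreated and at 3.59, 8.40 and 9.01 CPM in treated replicates 1 to 3. The lowest HD mouse, untreated replicate 1, was above every WT mouse, and untreated replicate 3 was 14.2-fold higher than untreated replicate 1. In untreated mice the log2 fold change was 5.26 ± 1.02 (38.4-fold, 95% interval 7.93 to 186, edgeR adjusted p = 0.0150). Without untreated replicate 3 this was 3.65 (edgeR adjusted p = 0.0134). In treated mice the log2 fold change was 4.92 ± 1.01 (30.3-fold, 6.29 to 146, edgeR adjusted p = 0.0326).

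Of the genes that act downstream of Dectin-1 or are related to it, 5 of 9 passed the filter and none of them was called in either HD group. Syk, which Dectin-1 also uses, is given above. Card9, the adaptor of this pathway, had log2 fold changes of 0.23 ± 0.39 in untreated and 0.22 ± 0.39 in treated mice. Its partners Malt1 and Bcl10 had 0.25 ± 0.13 and 0.32 ± 0.17 in untreated mice, against 0.26 ± 0.13 and 0.38 ± 0.17 in treated mice. Prkcd went the other way, with −1.15 ± 0.71 in untreated and −0.56 ± 0.70 in treated mice. It was at 26.3, 28.5 and 213 CPM in WT replicates 1 to 3. The related lectin Clec4e had no count in any of the 9 mice.

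Itgax (ENSMUSG00000030789) encodes CD11c, the α chain of an integrin carried by DAM and by dendritic cells. Its level was 0.340, 0.147 and 0.432 CPM in WT, 1.72, 3.32 and 17.5 CPM in untreated and 3.46, 6.42 and 9.04 CPM in treated replicates 1 to 3. All 6 HD mice were above the WT mice, again with untreated replicate 1 lowest and untreated replicate 3 highest. Untreated mice had a log2 fold change of 4.59 ± 0.93 (24.1-fold, 95% interval 5.67 to 102, edgeR adjusted p = 0.0176), and treated mice one of 4.33 ± 0.93 (20.2-fold, 4.78 to 85.1, adjusted p = 0.0375). The value in untreated mice without replicate 3 was 3.01 (edgeR adjusted p = 0.0174). Itgb2, the β chain that pairs with CD11c, rose by 1.48 ± 0.48 and 1.26 ± 0.48 on the log2 scale.

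Among 12 adhesion genes that hold the partners of CD11c and of osteopontin, 5 rose and 1 fell in untreated mice, and 6 rose and none fell in treated mice. Of all tested genes 5.57% rose and 2.58% fell in untreated mice, and 3.84% and 1.38% in treated mice. Cd44, an osteopontin receptor, was higher by 1.61 ± 0.61 and 1.39 ± 0.60 on the log2 scale and was called in each group. The osteopontin-binding integrin chains Itgav and Itgb3 had log2 fold changes of 0.54 ± 0.16 and 0.88 ± 0.21 in untreated mice, against 0.46 ± 0.16 and 0.95 ± 0.20 in treated mice, below 2-fold. Itga9, with the smallest P of the list, went the other way, with −1.14 ± 0.12 (edgeR adjusted p = 0.000911) in untreated and −0.83 ± 0.12 (adjusted p = 0.00706) in treated mice.

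Cst7 (ENSMUSG00000068129) encodes cystatin F, an inhibitor of lysosomal cysteine proteases. WT replicates 1 to 3 held 6, 0 and 3 counts, or 0.227, 0 and 0.0997 CPM. Untreated replicates held 1.44, 2.75 and 18.2 CPM and treated replicates 2.18, 5.14 and 10.8 CPM, and none overlapped the WT mice. The fitted log2 change was 6.06 ± 1.29 (66.9-fold, 95% interval 8.95 to 500.2, edgeR adjusted p = 0.0212) in untreated mice. With untreated replicate 3 left out it was 4.23 (edgeR adjusted p = 0.0355). In treated mice it was 5.75 ± 1.29 (53.8-fold, 7.22 to 401, edgeR adjusted p = 0.0437). WT mice held at most 6 counts of Cst7, 8 of Clec7a and 13 of Itgax, so that these 3 genes passed the low-count filter through the HD mice alone and could pass it only if they differed. Their fold changes depend on these few counts.

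Beside 5.57% (untreated) and 3.84% (treated) of all tested genes, 2 of 7 cystatins and cathepsins rose in each HD group and none fell. These were Ctss, the cathepsin of antigen presentation, with log2 fold changes of 1.88 ± 0.50 (edgeR adjusted p = 0.0424) and 1.72 ± 0.49 (adjusted p = 0.0880), and Ctsh with 1.11 ± 0.41 and 1.03 ± 0.41. Ctsc, a known target of cystatin F, had 1.15 ± 0.54 (edgeR adjusted p = 0.192) and 1.00 ± 0.53 (adjusted p = 0.319) and did not pass the test. Cst3, the abundant cystatin C of the brain, had −0.38 ± 0.14 and −0.18 ± 0.14, and the lysosomal Ctsl had 0.089 ± 0.085 and 0.067 ± 0.085.

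**Figure D2:**
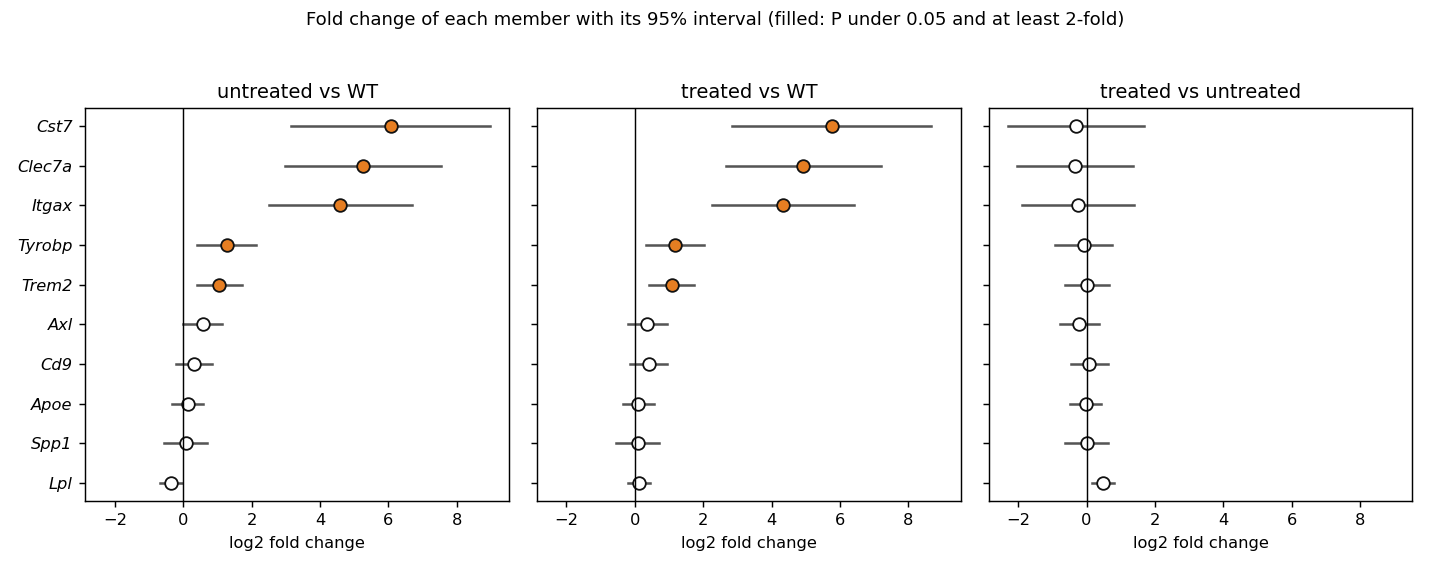
Log2 fold change of each DAM gene on the horizontal axis, with its 95% interval, in untreated against WT, treated against WT and treated against untreated mice; filled points are called genes. The same 5 genes are filled in both comparisons with WT and none is filled between the HD groups, where the intervals of Cst7, Clec7a and Itgax are the widest.

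Apoe (ENSMUSG00000002985) encodes apolipoprotein E, the lipid carrier that astrocytes make in bulk and DAM add to. At 1270 to 1630 CPM in WT, 1177 to 2099 CPM in untreated and 1340 to 1710 CPM in treated mice, its groups overlapped. The log2 fold change against WT was 0.13 (95% interval −0.33 to 0.59) in untreated and 0.10 (−0.36 to 0.56) in treated mice. A level in whole striatum does not tell astrocytic from microglial Apoe, and for any gene here more cells of a type and more RNA per cell cannot be told apart.

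Lpl (ENSMUSG00000015568) encodes lipoprotein lipase, which frees fatty acids from lipoproteins. It was counted at 39.2, 38.3 and 56.5 CPM in WT, at 32.3, 37.8 and 34.9 CPM in untreated and at 49.7, 49.2 and 46.9 CPM in treated replicates 1 to 3. Each untreated mouse was below each WT mouse, as in 15.1% of all tested genes, and each treated mouse was above each untreated mouse, as in 6.92%, while WT replicate 3 was the highest of all. The differences on the log2 scale were −0.35 ± 0.14 (edgeR adjusted p = 0.139) in untreated against WT, 0.12 ± 0.14 (adjusted p = 0.670) in treated against WT and 0.47 ± 0.14 (adjusted p = 0.886) in treated against untreated mice. None reached 2-fold or passed the adjusted threshold. Without WT replicate 3 the first of these was −0.14.

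Of 18 tested genes of lipid handling, 1, Cd36, was called in each HD group and none fell, a share near the 5.57% and 3.84% of all tested genes that rose. Their median log2 fold change was 0.084 in untreated and 0.14 in treated mice. Cd36, a fatty acid receptor, had 1.86 ± 0.69 and 1.67 ± 0.69. Abca1, which loads ApoE with cholesterol, was above WT by 0.75 ± 0.21 (edgeR adjusted p = 0.0485) and 0.71 ± 0.21 (adjusted p = 0.0906) on the log2 scale, below the 2-fold limit. Lrp8, an ApoE receptor, had 0.57 ± 0.14 and 0.30 ± 0.14, and Lmf1, needed to fold lipoprotein lipase, −0.40 ± 0.13 and −0.37 ± 0.13. Lrp1 had −0.074 ± 0.10 and −0.13 ± 0.10.

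Axl (ENSMUSG00000002602) encodes a receptor tyrosine kinase that binds apoptotic cells through GAS6. It was counted at 41.6, 36.7 and 41.4 CPM in WT, at 42.8, 45.7 and 89.1 CPM in untreated and at 43.7, 51.4 and 58.9 CPM in treated replicates 1 to 3. All HD mice were above all WT mice, but untreated replicate 1 and treated replicate 1 lay close to the highest WT mouse. Axl differed from WT by 0.57 ± 0.25 on the log2 scale in untreated (edgeR adjusted p = 0.171) and by 0.36 ± 0.25 in treated mice (adjusted p = 0.442), and by 0.15 in untreated mice without replicate 3.

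Of 6 genes that act with Axl, 2 rose in untreated and 1 in treated mice, where 5.57% and 3.84% of all tested genes rose. Socs1, an inhibitor of cytokine signalling, rose in both groups, by 2.41 ± 0.83 and 1.97 ± 0.83 on the log2 scale, and Socs3 in untreated mice by 1.47 ± 0.60. Pros1, a ligand of the same receptor family, had 0.82 ± 0.21 and 0.79 ± 0.21, below 2-fold. The sister receptors had −0.36 ± 0.077 (Tyro3) and −0.29 ± 0.16 (Mertk) in untreated mice, against −0.27 ± 0.077 and −0.49 ± 0.17 in treated mice. Gas6 had −0.18 ± 0.10 and −0.15 ± 0.10.

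Cd9 (ENSMUSG00000030342), a membrane tetraspanin, lay at 41.8 to 49.99 CPM in WT, 39.4 to 82.3 CPM in untreated and 50.8 to 65.6 CPM in treated mice. Treated mice were above WT mice without overlap, but the log2 fold changes of 0.32 (95% interval −0.22 to 0.85) in untreated and 0.40 (−0.13 to 0.94) in treated mice did not pass the test. Beside 5.57% (untreated) and 3.84% (treated) of all tested genes, 2 of 9 other tetraspanins and their partners rose in each HD group. These were Cd53 and Cd37, both typical of leukocytes and microglia, with 1.29 ± 0.33 and 1.43 ± 0.41 in untreated mice, against 1.24 ± 0.33 and 1.07 ± 0.41 in treated mice. Cd81 had 0.12 ± 0.10 and 0.16 ± 0.10.

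Spp1 (ENSMUSG00000029304) encodes osteopontin, a secreted matrix protein also made by some neurons. It lay at 11.3 to 15.5 CPM in WT, 10.4 to 19.3 CPM in untreated and 10.9 to 18.02 CPM in treated mice, with log2 fold changes of 0.073 (95% interval −0.55 to 0.70) and 0.082 (−0.55 to 0.71) against WT. In GENCODE M21 Spp1 and Cd9 overlap other annotated genes, Spp1 on its own strand and Cd9 on the opposite strand, and whether the counting used strand is not given in the sources used here, so their counts are less certain.

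No overlap with WT mice was seen for 6 of 10 DAM genes in untreated mice, where 15% of all tested genes were higher in this way, and for 7 of 10 in treated mice, where 13.4% were. The 6 HD mice were also set against the 3 WT mice with a two-sided exact permutation test on log2 CPM, over 84 splits, for each of the 10 genes. For Trem2, Tyrobp, Cst7, Itgax, Clec7a and Axl, all 6 HD mice were above all 3 WT mice, for which the exact permutation p was 0.0238, the smallest that this design allows, and 8.19% of all tested genes were higher without overlap in the same way. The exact permutation p was 0.214 for Cd9, 0.690 for Apoe, 0.714 for Lpl and 0.810 for Spp1. These values, unlike those of edgeR, are not adjusted. Cst7, Itgax and Clec7a passed the low-count filter only through the HD mice, so nothing is read from their p-values. The counts of 6 and 7 of 10 hold these 3 genes and are not read against the shares.

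In edgeR's fit of both HD groups against WT, 5 of 10 genes were called as higher, where 4.63% of all tested genes were, and the same 5 had an adjusted p under 0.05, where 4.52% rose at that threshold. At that threshold 3 of 10, Cst7, Itgax and Clec7a, rose in each HD group alone, where 4.58% of all tested genes rose in untreated and 0.904% in treated mice. As these are the 3 genes that passed the filter only through the HD mice, nothing is read from that count or from the 5 of 10. In treated against WT mice no DAM gene had an adjusted p under 0.05 once any WT or any treated mouse was left out, although 4 or 5 were still called. With the presence of Y-linked counts as a covariate, 3 of 10 were called in untreated and 0 of 10 in treated mice, where 5.48% and 3.08% of all tested genes were called in either direction. All WT mice and no treated mice have Y-linked counts. The covariate is thus set only by untreated replicate 1 against untreated replicates 2 and 3, and its values do not separate sex from group. With the covariate the log2 fold changes in untreated and treated mice were 2.68 and 1.83 for Clec7a, 2.46 and 1.74 for Itgax, and 3.69 and 2.89 for Cst7. These 3 are the genes called in untreated mice, and nothing is read from their count. Among mice with Y-linked counts, untreated replicate 1 was above each WT mouse in all 3 genes. This is 1 mouse and holds for genes that passed the filter only through the HD mice, so nothing is read from it. A difference by sex was not tested.

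To set the DAM genes against genes of resting microglia, each gene was expressed relative to the mean log2 CPM of 14 homeostatic microglia genes in the same mouse. As genes of the resting state fall in the DAM program, this mean is not a measure of the amount of microglial RNA. None of these 14 genes, among them P2ry12, Tmem119 and Cx3cr1, was called in either HD group, and their median log2 fold change was 0.38 in untreated and 0.59 in treated mice. In the 6 HD mice together Cx3cr1 had 0.74 ± 0.22 (edgeR adjusted p = 0.0585). Relative to this list, Cst7 lay 4.51 (untreated) and 4.56 (treated) above WT on the log2 scale, Clec7a 3.85 and 3.997, and Itgax 3.43 and 3.56. Tyrobp was higher by 0.77 and 0.64 and Trem2 by 0.62 and 0.55, and none of these 5 genes overlapped between either HD group and WT. On this scale 4.31% of all tested genes were higher without overlap in untreated and 3.18% in treated mice. Of the 5 genes, Cst7, Clec7a and Itgax passed the low-count filter only through the HD mice, so nothing is read from this count. None of the other 5 genes was, and Lpl in untreated mice (−0.65) and Apoe in treated mice (−0.41) were lower without overlap, as were 28.6% and 58.6% of all tested genes.

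For the receptor pair, 12 genes that microglia share with other macrophages gave another picture. Of these, 10 rose in untreated and 9 in treated mice, where 5.57% and 3.84% of all tested genes rose. The median log2 fold changes of the 12 genes were 1.395 and 1.24. Ptprc, the leukocyte antigen CD45, had 2.58 ± 0.64 and 2.06 ± 0.64, and the complement gene C1qa had 1.90 ± 0.52 and 1.53 ± 0.52. Relative to the mean of these genes, Trem2 was at −0.20 and −0.16 and Tyrobp at −0.051 and −0.068 from WT, and both overlapped the WT mice. Cst7 was still higher by 3.69 and 3.85, Clec7a by 3.03 and 3.29 and Itgax by 2.61 and 2.85, without overlap, as were 1.34% of all tested genes in untreated and 1.38% in treated mice. Apoe lay below WT by this measure, at −1.05 and −1.11, as did Lpl at −1.47 and −1.07, Spp1 at −1.12 and −1.16 and Cd9 at −0.90 and −0.82, each without overlap in both HD groups, and Axl at −0.86 did so in treated mice. The share of all tested genes that were lower without overlap was 54.9% in untreated and 79.5% in treated mice. These are descriptions with no test. Nothing is read from the separation of Cst7, Clec7a and Itgax, which passed the low-count filter only through the HD mice.

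**Figure D3:**
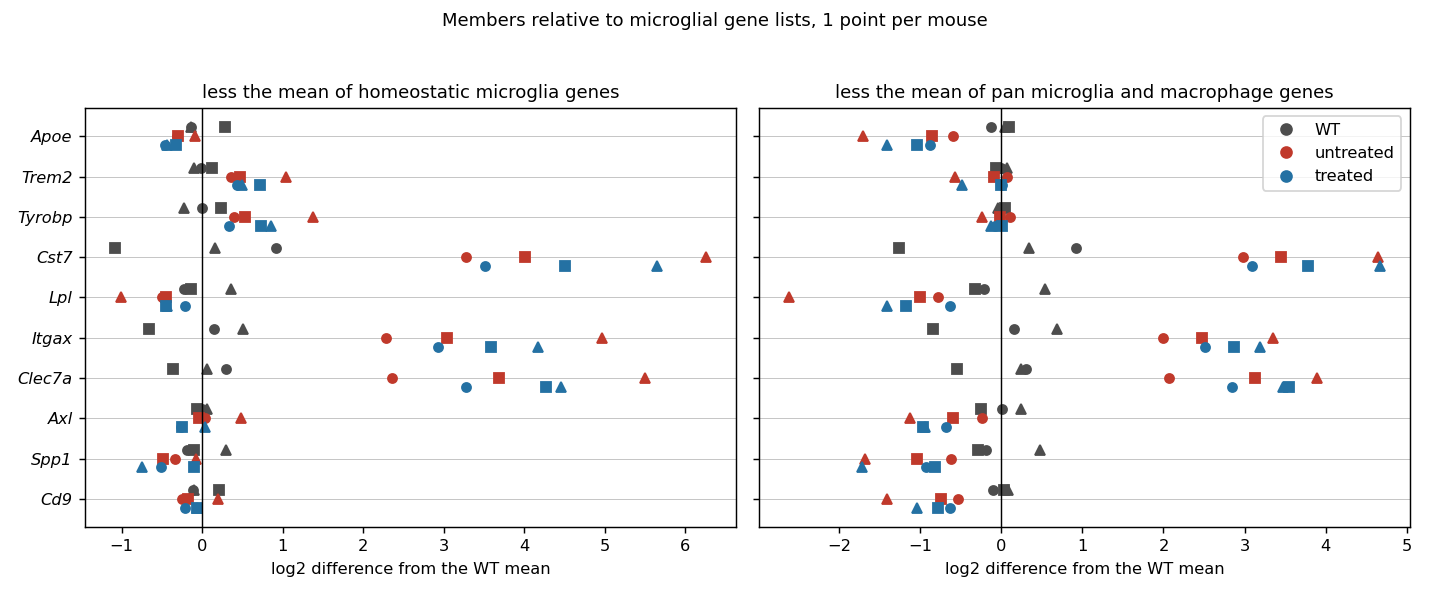
Each DAM gene relative to the mean of homeostatic microglia genes (left) and of pan microglia and macrophage genes (right), as the log2 difference from the WT mean on the horizontal axis, with 1 point per mouse and replicates 1, 2 and 3 as circles, squares and triangles. Cst7, Itgax and Clec7a lie right of all WT points in both panels, whereas Trem2 and Tyrobp do so in the left panel only.

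Of 29 other tested genes reported in DAM, 8 rose and 1, Dkk2, fell in untreated mice and likewise in treated mice, with median log2 fold changes of 0.40 and 0.35. Of all tested genes 5.57% rose and 2.58% fell in untreated mice, and 3.84% and 1.38% in treated mice. Cd52, which lymphocytes also carry, rose by 3.43 ± 0.71 and 3.26 ± 0.71 on the log2 scale, and the lysozyme gene Lyz2 by 2.98 ± 0.71 and 2.60 ± 0.70. B2m, a subunit of MHC class I, rose by 3.09 ± 0.65 and 2.72 ± 0.64. The inhibitory receptor Lilrb4a rose by 3.83 ± 0.92 and 3.17 ± 0.91, and the lysosomal glycoprotein gene Gpnmb by 3.05 ± 0.72 and 2.23 ± 0.70. The lysosomal proteases Ctsb and Ctsd had 0.29 ± 0.14 and 0.60 ± 0.28 in untreated mice, against 0.12 ± 0.14 and 0.45 ± 0.28 in treated mice, and the ferritin gene Fth1 had −0.10 ± 0.12 and −0.014 ± 0.12, none of them called. Serpine2, a protease inhibitor, had −0.46 ± 0.093 and −0.21 ± 0.093.

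Treated and untreated mice were compared directly to ask whether the HTT guides changed these genes. At an adjusted p under 0.05, 0 of 10 passed in edgeR, where 0% of all tested genes did. In DESeq2 0 of 10 passed, and its share of all tested genes is not given here. With edgeR 1 of 10, Lpl, had a raw P under 0.05, as did 1071 of all 19463 genes. The log2 differences were −0.31 (95% interval −2.30 to 1.67) for Cst7, −0.25 (−1.88 to 1.37) for Itgax, −0.34 (−2.03 to 1.35) for Clec7a, 0.013 (−0.64 to 0.67) for Trem2 and −0.088 (−0.92 to 0.75) for Tyrobp. For Cst7, Itgax and Clec7a these intervals leave room for changes of more than 2-fold either way. In each of these 3 genes all treated mice lay between untreated replicates 1 and 3.

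The comparison turned on untreated replicate 3. Without it, the log2 differences of treated from untreated mice became 1.52 for Cst7, 1.32 for Itgax, 1.27 for Clec7a, 0.56 for Tyrobp and 0.51 for Trem2. Itgax (edgeR adjusted p = 0.789) and Clec7a (adjusted p = 0.801) were then called as higher in treated mice, where 1.33% of all tested genes were called in either direction. Without untreated replicate 1, which leaves HD mice without Y-linked counts, the differences were −0.79, −0.71, −0.83, −0.36 and −0.22 in the same order, and none was called. Among the 6 HD mice the highest level was 14.2-fold the lowest for Clec7a, 12.7-fold for Cst7, 10.2-fold for Itgax, 3.04-fold for Tyrobp and 2.47-fold for Trem2, beside a median of 1.39-fold over all tested genes.

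Interferon genes and T cell genes, like the DAM genes, were highest in untreated replicate 3. The mean of the DAM genes was above WT by 0.79, 1.26 and 2.54 on the log2 scale in untreated and by 1.28, 1.87 and 1.92 in treated replicates 1 to 3. For 15 interferon response genes these values were 2.204, 2.83 and 4.82 and then 2.04, 2.36 and 4.28, and 15 of 15 rose in each group. For 10 T cell and NK cell genes they were 1.36, 2.65 and 5.28 and then 1.71, 2.51 and 3.59, with 9 of 10 genes up in untreated and 6 of 10 in treated mice. Over all tested genes 5.57% rose in untreated and 3.84% in treated mice. These 9 genes and the interferon genes Mx1 and Cxcl10 were at most 0.266 CPM in any WT mouse. They passed the low-count filter only through the HD mice, so nothing is read from these counts. Cd4, the coreceptor of helper T cells, fell in each group, with log2 fold changes of −1.99 ± 0.15 and −1.18 ± 0.14. It was at 62.6 to 79.8 CPM in WT mice, where the T cell genes Cd3d and Cd3g were at 0. Its fall is therefore not read as a fall of T cells, and its source was not tested. In all 3 lists untreated replicate 3 was highest, and untreated replicate 1 was the lowest or, for interferon genes, the next to lowest of the HD mice.

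Of 8 tested dendritic cell genes 2, Itgae and Clec10a, rose in untreated mice and none in treated mice. Both passed the low-count filter only through the HD mice, so nothing is read from this count. Over all tested genes 5.57% rose in untreated and 3.84% in treated mice. Itgae lay at 0.0734 to 0.299 CPM in WT, 0.403 to 5.57 CPM in untreated and 0.0919 to 0.743 CPM in treated mice. The summed level of all 11 listed genes, most of which came in every mouse from Flt3, Zbtb46, Cd24a and Siglech, a gene that is also on the homeostatic microglia list, was 40.0 to 46.4 CPM in WT, 44.4 to 67.2 CPM in untreated and 47.7 to 50.9 CPM in treated mice. The defining dendritic marker Xcr1 had no count in 7 mice and reached 1.53 CPM in untreated replicate 3 and 0.388 CPM in treated replicate 3, while Zbtb46 had log2 fold changes of −0.13 ± 0.15 and −0.18 ± 0.15. Of 10 tested border macrophage and monocyte genes 3 rose in untreated and 2 in treated mice, beside 5.57% and 3.84% of all tested genes. Summed over all 12 listed genes, of which Vcan gave the largest share in every mouse, the level was 39.5 to 47.1 CPM in WT, 28.3 to 55.9 CPM in untreated and 41.5 to 51.2 CPM in treated mice. Ly6c2, a gene of circulating monocytes, rose by 4.38 ± 0.95 and 4.54 ± 0.96 on the log2 scale. It was at most 0.477 CPM in WT mice and passed the low-count filter only through the HD mice. Only 1 of 8 neutrophil markers was tested. This was Csf3r, which rose by 1.12 ± 0.35 and 1.07 ± 0.35, while Ly6g was at 0 in all mice. Csf3r was at 7.89 to 8.80 CPM already in WT mice, and the neutrophil gene S100a9 was at most 0.294 CPM in any mouse. The rise of Csf3r is therefore not read as a rise of neutrophils. Also, of 4 tested B cell and plasma cell genes 3 rose in untreated and 4 in treated mice, beside 5.57% and 3.84% of all tested genes. All 4 passed the low-count filter only through the HD mice, so nothing is read from this count. Of 10 genes of striatal projection neurons, 9 fell in untreated and 8 in treated mice, and of 8 choroid plexus genes, 8 were called as lower in untreated and none in treated mice. Over all tested genes 2.58% fell in untreated and 1.38% in treated mice. The choroid plexus mean of WT replicate 1 (−3.05 on the log2 scale) was nevertheless below that of every untreated mouse, and WT replicates 2 and 3 were at 2.13 and 0.92. The part of these cells in the levels of Itgax, Clec7a and Cst7 was not tested.

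**Figure D4:**
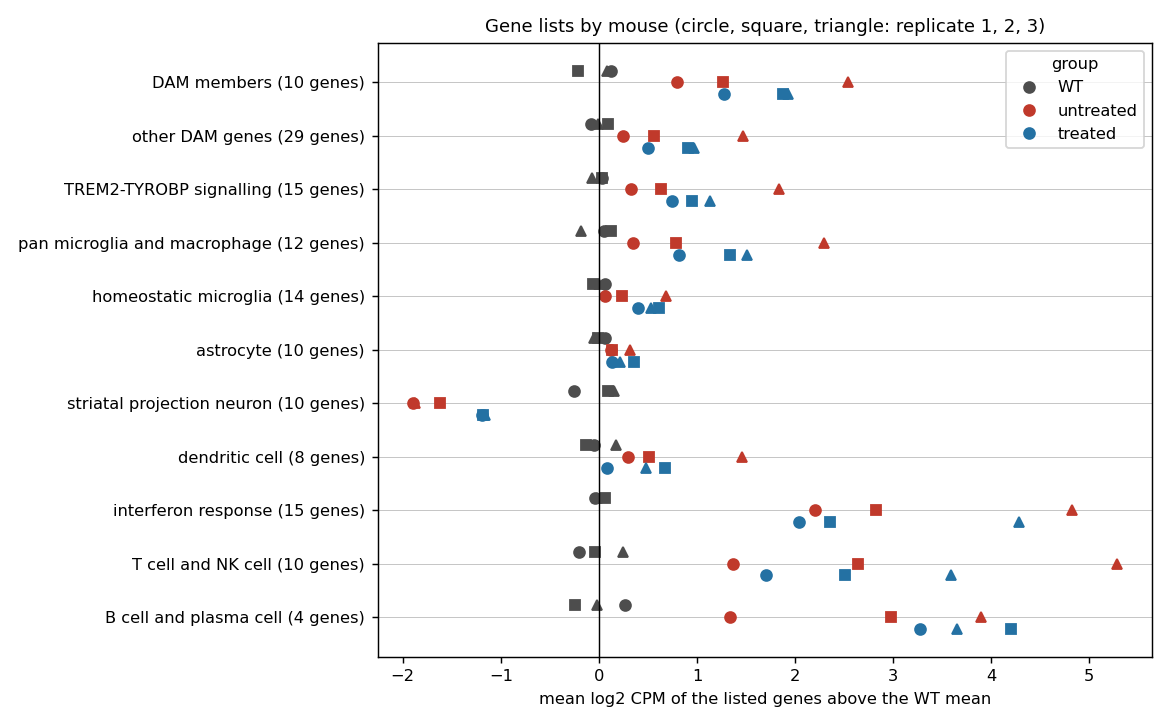
Mean log2 CPM of each gene list above its WT mean on the horizontal axis, with 1 point per mouse, colours for the groups and circles, squares and triangles for replicates 1, 2 and 3. In the DAM genes, the genes shared by microglia and macrophages, the interferon genes and the T cell genes untreated replicate 3 lies farthest right, while homeostatic microglia genes stay within 0.68 of WT.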

How the data were processed

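Striatal RNA of 9 mice was counted per Ensembl gene. The authors deposited raw counts, without normalization, from libraries primed with oligo-dT. The paper's methods name STAR for alignment, whereas the submitters' processing notes list Trimmomatic 0.39, HISAT2 2.2.1 and featureCounts 2.0.1. The mouse build of the counts is not given in the sources used here. The only positions printed are those of the RefSeq promoter windows. Levels of different genes were compared only to name the largest genes of summed lists and to set Cd4 and Csf3r beside others of their lists. GENCODE M21 named 94.1% of the 55357 gene IDs.

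The counts went through edgeR 4.0.16 (R 4.3.3). Genes passed filterByExpr (minimum count 10), TMM set the scale, and glmQLFit was run once on all 9 mice, with 6 residual degrees of freedom. Each SE was obtained from the F statistic and the log2 fold change. Log2 CPM used a prior count of 2. A gene was called at a raw P under 0.05 and a 2-fold difference, the threshold that the paper uses in its mouse results. Its methods name the stricter P under 0.01, an alternative here. The members and gene lists were chosen with earlier results of these data known. All 10 members are named, with up to 4 genes per list by smallest P in both HD groups against WT and with fixed partners of a member. Cd24a, Cd36, Clec4e, Ctsb, Ctsd, Dkk2, Fth1, Gpnmb, Grb2, Lilrb4a, Ly6g, P2ry12, Socs3, Tmem119, Xcr1 and Zbtb46 fall outside this rule and were chosen after their values were seen. Some genes that the rule would name are not reported here.

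Alternatives were scaling without TMM, DESeq2 1.42.0, no filter, at least 10 counts in every library, fits of the compared groups, replicate number as a block, Y-linked counts as a covariate, a P under 0.01, a prior count of 0.5 for the permutation test and each mouse left out once. A group left with 2 mice shares the spread of the other groups. No 2 libraries agreed within sampling noise. Whether mice shared litters is not given, and p-values measure the spread between these mice. The steps were tested on simulated data. Pig counts were not used, since their IDs are not paired with names. Promoters came from RefSeq (GRCm38.p6). Matplotlib 3.10.9 (Python 3.11.15) drew the figures.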

Additional observations from a re-analysis of the deposited data

Results flagged for a closer look

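Lpl was singled out because the HD groups departed from WT in opposite directions. Every untreated mouse lay below the WT mean and every treated mouse above it on the log2 CPM scale, and the departures of the groups differed by 0.47. The direct comparison of treated with untreated mice in edgeR did not pass the threshold (adjusted p = 0.886). Leaving out any 1 of the 9 mice kept the difference between 0.42 and 0.54, higher in treated mice each time.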

How the results depend on the processing

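Clec7a, Itgax, Cst7, Trem2 and Tyrobp had positive log2 fold changes against WT under every alternative that kept them. The 5 genes called against WT became 2 in untreated mice, 2 in treated mice and 2 in both HD groups together when every library had to hold at least 10 counts, since that filter removes Cst7, Itgax and Clec7a. With the Y-linked covariate, which is set within the untreated group alone, they became 3, 0 and 1. Leaving out 1 mouse at a time, 3 to 5 were called in untreated mice (3 without untreated replicate 3), 4 to 5 in treated mice, 3 to 5 in both together (3 without untreated replicate 3) and 0 to 2 between treated and untreated mice (2 without untreated replicate 3). At an adjusted p under 0.05 the counts were 3, 3 and 5. DESeq2 gave 5 in untreated and 5 in treated mice, no filter gave 0 in treated mice and 3 in both together, at least 10 counts in every library gave 1, 0 and 2, a fit of the compared groups alone gave 5 in treated mice, and the Y-linked covariate gave 0, 0 and 0. With 1 mouse left out these counts ran from 0 (without WT replicate 2) to 5 (without untreated replicate 1) in untreated mice, from 0 (without any WT or treated mouse) to 5 (without untreated replicate 3) in treated mice and from 0 (without WT replicate 2) to 5 in both together. The cause was not tested. Apart from the shares given above, the share of all tested genes under each alternative is not given. These counts show how the calls shift and are not read as results about the DAM genes.

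Correlations of the deviations of same-numbered mice ran from −0.081 to 0.24. Between the HD groups they were 0.19 and 0.24 for replicates 1 and 3 and −0.0030 for replicate 2, and since not every pair was over 0.1 the numbers were not taken as pairs. With the replicate block 4 genes instead of 5 were called in untreated mice, where Trem2 was at 0.98 on the log2 scale, and the log2 differences of treated from untreated mice turned to 0.16 for Cst7, 0.24 for Itgax and 0.21 for Clec7a, none of them called.

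Values that changed sign were all uncalled in the report. The Y-linked covariate is set by untreated replicate 1 against the other untreated mice, so its values carry that difference. With the Y-linked covariate the log2 fold changes in untreated against WT, treated against WT and both together were −0.26, −0.44 and −0.35 for Apoe, −0.29, −0.44 and −0.37 for Spp1 and −0.19, −0.31 and −0.25 for Cd9. Lpl in treated mice was −0.049, Axl was −0.29 in treated mice and −0.096 in both together, and in treated against untreated mice Trem2 was −0.23, Spp1 −0.14 and Cd9 −0.11. Leaving out 1 mouse, the range in untreated against WT mice was −0.16 to 0.28 for Apoe, −0.28 to 0.24 for Spp1 and −0.068 to 0.51 for Cd9, and in treated against WT mice −0.18 to 0.26 for Spp1. In both together it was −0.029 to 0.24 for Apoe, −0.21 to 0.096 for Lpl and −0.0997 to 0.25 for Spp1. Between treated and untreated mice it was −0.17 to 0.27 for Apoe, −0.22 to 0.51 for Trem2, −0.36 to 0.56 for Tyrobp, −1.02 to 1.52 for Cst7, −0.71 to 1.32 for Itgax, −0.83 to 1.27 for Clec7a, −0.38 to 0.21 for Axl, −0.25 to 0.36 for Spp1 and −0.10 to 0.47 for Cd9, and the highest of each came without untreated replicate 3. Depth limits Cst7, Itgax and Clec7a in WT mice, where no library held more than 13 counts of them.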
